A study of Mus musculus with 2 samples.

Results

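The SOX genes encode transcription factors that share the HMG box of Sry, a DNA-binding domain. The genes described here were chosen by name, as 10 members of this family in the count table, *Sox4*, *Sox5*, *Sox6*, *Sox8*, *Sox9*, *Sox10*, *Sox11*, *Sox12*, *Sox17* and *Sox18*, out of 24421 rows. They are 10 of the 20 SOX family genes that the table lists. RNA-Seq had 1 library for each cell type, primary chondrocytes from the rib cartilage of newborn mice and primary dermal fibroblasts from the dorsal skin of newborn mice. No gene was deleted and no agent was given in either group, and neither the strain nor the number of mice behind each library was stated. Both cell types had been released by collagenase, the chondrocytes were used within 2 passages, and no sort for a cell type was described for either preparation. The comparison served to find transcription factors with higher expression in chondrocytes.

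SOX proteins bend DNA at short A/T-rich sites and usually act together with partner factors. In cartilage, *Sox9*, a SOXE gene, is the master regulator of chondrocyte identity, and the SOXD genes *Sox5* and *Sox6* act beside it on the genes of the cartilage matrix. SOXC genes are known from progenitor cells and embryonic mesenchyme, *Sox10* from neural crest derivatives such as Schwann cells and melanocytes, and SOXF genes from blood and lymphatic vessels.

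The libraries held 18788599 counts in chondrocytes and 17563724 counts in dermal fibroblasts. They carried the defining genes of their labels, since *Col2a1*, the collagen of cartilage, had 1447098 counts in chondrocytes against 0 in the other library, while *Col1a1* had 39143 and 322379 counts, and the fibroblast marker *Dpt* had 278 and 5155 counts. Folds are ratios of counts divided by the size factor of each library (0.994 and 1.01, median of ratios), with a 95% Clopper-Pearson interval. The interval covers counting error only. With 1 library per cell type there was no replicate check and no p-value, and a fold describes these 2 libraries. In such bulk samples, fewer cells of a type and less RNA per cell cannot be told apart.

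The RefSeq windows around annotated transcript starts (GRCm38.p6, 250 bases before to 50 after each start) are shown for members with large and small folds between the libraries. *Sox5*, *Sox6* and *Sox8* had the largest folds toward chondrocytes, and *Sox4* had one near 1. Windows were at hand for 6 of the 10 members (11 windows, 6 of them for *Sox6*), and for *Sox9*, *Sox10*, *Sox17* and *Sox18* none was printed. The sequences run 5′ to 3′ on the minus strand, and capitals mark ACAATG or ACAAAG, which hold the core to which HMG boxes of SOX proteins bind, on either strand.
Sox5 (chr6:143947057-143947356): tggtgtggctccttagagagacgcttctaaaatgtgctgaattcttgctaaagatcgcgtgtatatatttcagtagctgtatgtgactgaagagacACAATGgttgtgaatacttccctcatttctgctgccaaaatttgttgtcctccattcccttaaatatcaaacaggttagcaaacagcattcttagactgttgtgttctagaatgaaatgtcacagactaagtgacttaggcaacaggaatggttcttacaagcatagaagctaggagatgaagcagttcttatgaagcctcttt
Sox6, most upstream start (chr7:116038695-116038994): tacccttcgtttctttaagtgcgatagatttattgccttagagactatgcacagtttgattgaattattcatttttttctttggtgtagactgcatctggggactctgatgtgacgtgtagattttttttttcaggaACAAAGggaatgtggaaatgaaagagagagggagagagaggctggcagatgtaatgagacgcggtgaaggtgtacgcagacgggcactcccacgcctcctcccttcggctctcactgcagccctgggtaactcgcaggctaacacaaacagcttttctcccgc
Sox6, an inner start (chr7:115995037-115995336): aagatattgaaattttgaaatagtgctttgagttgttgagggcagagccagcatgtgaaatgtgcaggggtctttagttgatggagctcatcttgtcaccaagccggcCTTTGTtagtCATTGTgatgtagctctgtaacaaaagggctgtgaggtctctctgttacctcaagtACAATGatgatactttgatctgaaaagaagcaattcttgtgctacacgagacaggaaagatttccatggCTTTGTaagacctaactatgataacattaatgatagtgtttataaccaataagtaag
Sox8 (chr17:25570637-25570936): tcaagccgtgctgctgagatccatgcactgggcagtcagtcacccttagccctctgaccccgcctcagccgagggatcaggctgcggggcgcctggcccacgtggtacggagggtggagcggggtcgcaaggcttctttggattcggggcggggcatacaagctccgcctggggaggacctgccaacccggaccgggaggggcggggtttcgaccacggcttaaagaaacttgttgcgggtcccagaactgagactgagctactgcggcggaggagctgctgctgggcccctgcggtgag
Sox4 (chr13:28953650-28953949): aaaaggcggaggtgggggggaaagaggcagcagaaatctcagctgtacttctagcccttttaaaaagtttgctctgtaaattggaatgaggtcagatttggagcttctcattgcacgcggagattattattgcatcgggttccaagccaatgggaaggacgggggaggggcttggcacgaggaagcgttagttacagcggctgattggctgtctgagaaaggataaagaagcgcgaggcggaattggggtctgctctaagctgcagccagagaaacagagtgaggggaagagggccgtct

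ACAATG or ACAAAG stood in the *Sox5* window and in 5 of the 6 *Sox6* windows, with 4 matches in the inner *Sox6* window shown. None of the 4 windows of *Sox4*, *Sox8*, *Sox11* and *Sox12* held either. Of all 32851 RefSeq windows of this length, 28.6% held at least 1 of the motifs, with ACAATG in 12.6% and ACAAAG in 18.7%. The windows differed in base composition, with a G+C share of 39.7% for *Sox5*, 36.7% to 63.3% for *Sox6*, 52.0% for *Sox4*, 66.3% for *Sox8* and 76.7% for *Sox12*. The *Sox5* start lies 835181 bp inside the gene from its upstream end, and the most upstream *Sox6* start 2032 bp inside. The counts were summed over each gene and do not show which start was used. A match is a string of letters and was not tested for binding.

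Most of the members had more reads in chondrocytes. Of the 10 members, 6 were over 2-fold higher in chondrocytes, 1 was over 2-fold higher in dermal fibroblasts and 3 lay within 2-fold. Among the 14730 genes with at least 10 counts over both libraries, 11.8% were over 2-fold higher in chondrocytes and 16.4% over 2-fold higher in dermal fibroblasts. For 4 members the interval was above 2-fold throughout (6.79% of all genes tested), and for 1 member it was so toward dermal fibroblasts (10.7% of all genes tested). The median log2 fold of the members was 1.48, against -0.02 over all genes tested, whose quartiles were -0.59 and 0.42. Over all 20 SOX genes of the table, of which 13 had at least 10 counts, the median was 0.02. This is the value that the floor of 3 counts gives to *Sry*, *Sox1*, *Sox3*, *Sox14* and *Sox21*. It therefore does not compare with the medians over genes tested. The members were chosen with earlier results of these data known, so these counts and medians describe them and test nothing. All 10 members passed the minimum of 10 counts. The members with intervals wholly beyond 2-fold were *Sox5*, *Sox6*, *Sox8* and *Sox9* on one side and *Sox10* on the other. *Sox11* and *Sox17* were also over 2-fold higher in chondrocytes, with intervals that reached below 2-fold.

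**Figure D1:**
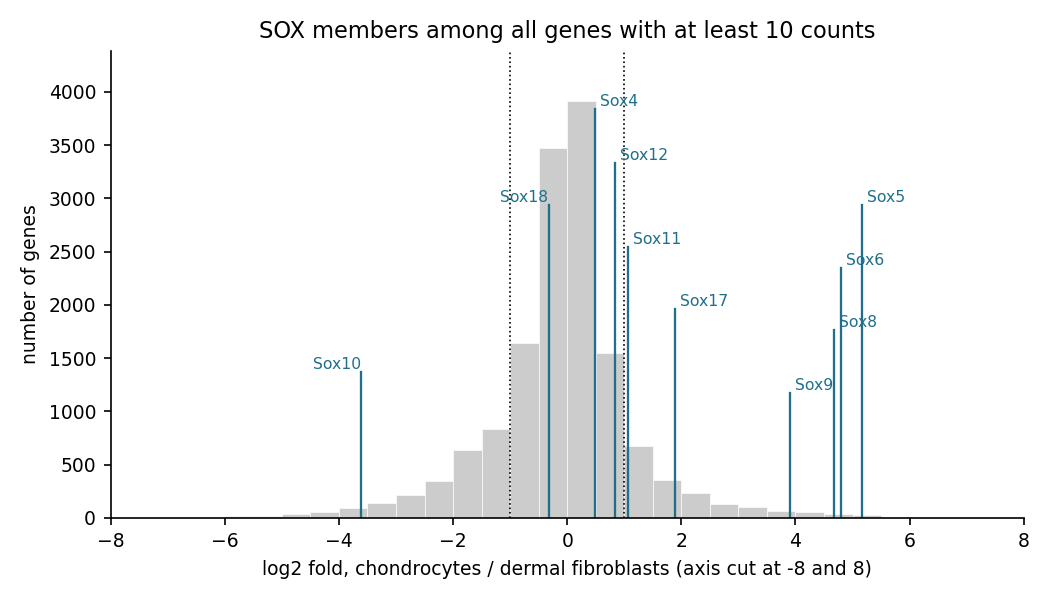
Histogram of the log2 fold (chondrocytes over dermal fibroblasts, horizontal axis) of the 14730 genes with at least 10 counts, as number of genes (vertical axis), with 1 line for each of the 10 SOX members (line height has no meaning) and dotted lines at 2-fold. *Sox9*, *Sox8*, *Sox6* and *Sox5* stand in the right tail, *Sox10* in the left tail, and *Sox18*, *Sox4* and *Sox12* between the dotted lines.

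*Sox9* (chromosome 11 of GRCm38, 112782210 to 112787757), the gene whose enhancers the study set out to find, was the SOX gene with the most reads in chondrocytes. It was counted 5045 times in chondrocytes against 342 times in dermal fibroblasts, or 268.5 and 19.5 CPM (counts scaled to a common library total). Its fold was 14.9 (interval 13.4 to 16.7), higher than that of 98.7% of the genes tested. The dermal fibroblast library was not without *Sox9*, whose share of all SOX reads there was 11.8% (exact binomial interval 10.7% to 13.1%), against 40.4% (39.5% to 41.2%) in chondrocytes. *Sox9* is also known from the hair follicle, and of 10 keratinocyte and hair follicle markers, 6 were over 2-fold higher in dermal fibroblasts and 0 over 2-fold higher in chondrocytes, with summed counts of 184 in chondrocytes and 5720 in dermal fibroblasts. *Krt14*, the keratin of basal epidermal cells, had 17 and 1939 counts, *Krt5* 1 and 1693, and *Krt17* 7 and 1024. The cell adhesion gene *Dsg3*, named after its values were seen, had 0 and 105 counts. Not all genes of the list followed these. *Lhx2* had 16 and 10 counts and *Krt15* 1 and 2, both named after their values were seen. The part of such cells in the 342 reads of *Sox9* was not tested.

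*Sox5* (chromosome 6, 143828425 to 144782287) and *Sox6* (chromosome 7, 115470872 to 116040776), the SOXD partners of *Sox9*, had larger folds than *Sox9* itself. *Sox5* had 957 counts in chondrocytes against 27 in dermal fibroblasts, a 35.9-fold difference (interval 24.5 to 54.7). *Sox6* had 2897 and 106 counts, a 27.7-fold difference (interval 22.8 to 33.9). These 2 genes are the longest of the members, spanning 953863 and 569905 bp in the genome, while the other members span at most 9578 bp.

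The relation between the genes of the trio can be read within each library, where scaling plays no part. For every *Sox9* read there were 0.574 *Sox6* reads in chondrocytes and 0.310 in dermal fibroblasts, so that the fold of *Sox6* exceeded that of *Sox9* by 1.85 times (conditional interval 1.48 to 2.34). *Sox5* gave 0.190 and 0.0789 reads per *Sox9* read, an excess of 2.40 times (interval 1.61 to 3.72). The folds of *Sox5* and *Sox6* were not separated by counting error, with a ratio of 1.297 (interval 0.837 to 2.07). Both partners were thus scarcer than *Sox9* in each library, and scarcer by more in dermal fibroblasts. *Sox5*, *Sox6* and *Sox9* together took 71.2% of all SOX reads in chondrocytes (exact binomial interval 70.4% to 72.0%) and 16.4% in dermal fibroblasts (15.1% to 17.8%). Read shares favor genes with long exons. Per kilobase of exon, the shares of the trio were 60.8% in chondrocytes and 12.1% in dermal fibroblasts. The third SOXD gene of the table, *Sox13*, which is not among the members, had 82 and 119 counts, a fold of 0.698 (interval 0.520 to 0.932).

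The other SOXE genes went in opposite directions. *Sox8* (chromosome 17, 25565893 to 25570686), which overlaps with *Sox9* in function in several tissues, had 276 reads in chondrocytes against 11 in dermal fibroblasts. Its fold was 25.4, with an interval from 13.98 to 51.5 that holds the folds of *Sox5*, *Sox6* and *Sox9*. *Sox8* was far scarcer than *Sox9*, with 0.0547 reads per *Sox9* read in chondrocytes and 0.0322 in dermal fibroblasts, and the ratio of their folds was 1.70 (interval 0.924 to 3.48). *Sox8* is also known from satellite cells, the stem cells of skeletal muscle. Of 12 skeletal muscle markers, 6 were over 2-fold higher in chondrocytes and 0 over 2-fold higher in dermal fibroblasts, with summed counts of 36579 and 26415 and none at 0 in either library. The satellite cell factor *Pax7*, named after its values were seen, had 120 reads in chondrocytes against 4 in dermal fibroblasts. The 3 most abundant muscle genes were nearer to equality, with 7288 and 7970 counts for *Actc1*, 7784 and 6497 for *Myh3*, and 6259 and 4705 for *Acta1*. The part of muscle cells in the reads of *Sox8* was not tested.

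*Sox10* (chromosome 15, 79154913 to 79164490) was the one member over 2-fold higher in dermal fibroblasts. Chondrocytes had 25 counts of it against 310 in dermal fibroblasts, a 12.2-fold difference toward dermal fibroblasts (interval 8.14 to 19.2). Within the SOXE genes the contrast was wide, as *Sox10* gave 0.00496 reads per *Sox9* read in chondrocytes and 0.906 in dermal fibroblasts. Its fold was lower than that of all but 1.55% of the genes tested.

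Genes of the neural crest derivatives in which *Sox10* is known were present in the same library. Of 12 Schwann cell markers, 9 were over 2-fold higher in dermal fibroblasts and 1 over 2-fold higher in chondrocytes, with a median fold of 0.313. *Ngfr*, a neurotrophin receptor, had 126 counts against 1352 in dermal fibroblasts, and *Erbb3*, the neuregulin receptor of Schwann cells, had 197 and 452. The exception was *S100b*, a calcium-binding protein gene that cartilage also expresses, with 2657 counts against 87 in dermal fibroblasts. It took most of the summed counts of the list in chondrocytes, which were 3465 against 3335 in dermal fibroblasts, and *Pou3f1*, a regulator of myelination, was at 0 in chondrocytes. Of 10 melanocyte markers, 6 were over 2-fold higher in dermal fibroblasts and 0 in chondrocytes, and 6 were at 0 in chondrocytes, with summed counts of 175 and 1162. Only 7 of the 10 had at least 10 counts over both libraries. Of the genes at 0, *Oca2*, *Gpr143* and *Trpm1*, named after their values were seen, had 1, 3 and 5 counts in dermal fibroblasts. *Mitf*, the regulator of pigment cells, had 150 and 599 counts. The pigment enzyme genes *Dct* and *Tyrp1* had 0 counts in chondrocytes and 238 and 149 in dermal fibroblasts. With the floor of 3 counts per library, their folds toward dermal fibroblasts were 78.4 (*Dct*) and 49.1 (*Tyrp1*). *Tyr*, named after its values were seen, had 10 and 15 counts. Its fold of 0.675 had an interval from 0.271 to 1.61. The part of Schwann cells and melanocytes in the reads of *Sox10* was not tested.

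**Figure D2:**
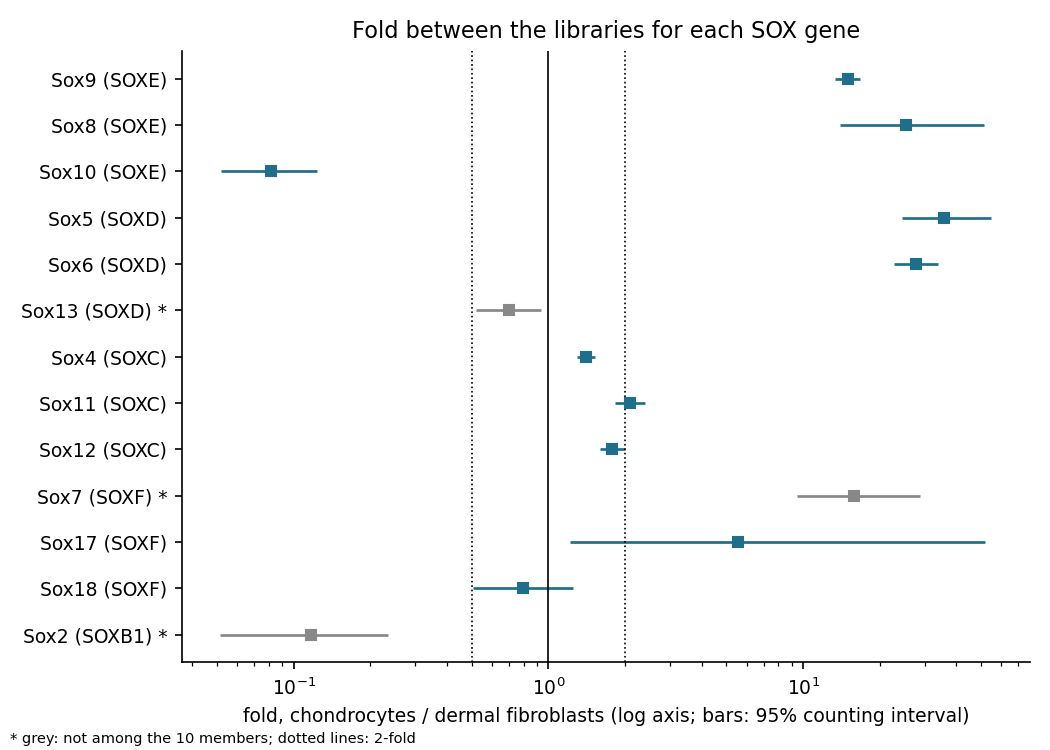
Fold between the libraries (chondrocytes over dermal fibroblasts, log axis) with its 95% counting interval for the 10 members (blue) and for 3 other SOX genes with at least 10 counts (grey, marked with an asterisk). The intervals of *Sox5*, *Sox6*, *Sox8* and *Sox9* lie wholly to the right of the dotted 2-fold line and that of *Sox10* wholly to the left of the other, while *Sox17* (drawn without the floor of 3 counts) spans from 1.22 to 51.7.

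The SOXC genes differed less between the libraries than *Sox5*, *Sox6*, *Sox8* and *Sox9* did. *Sox4* (chromosome 13, 28948919 to 28953699) had 1424 reads in chondrocytes against 1024 in dermal fibroblasts, for a fold of 1.41 (interval 1.298 to 1.53). *Sox12* (chromosome 2, 152393611 to 152398046) had 848 and 482 counts, a fold of 1.78 (interval 1.59 to 1.996). *Sox11* (chromosome 12, 27334268 to 27342718) had 647 and 314 counts, a fold of 2.09 (interval 1.82 to 2.40). All 3 had intervals above 1, and none had an interval wholly above 2-fold. With total counts in place of size factors, *Sox11* fell to 1.93-fold, so that 5 members rather than 6 were over 2-fold higher in chondrocytes.

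Relative to *Sox4*, the folds of *Sox11* and *Sox12* were larger by 1.48 times (interval 1.26 to 1.74) and 1.27 times (interval 1.09997 to 1.46), and those of *Sox11* and *Sox12* were not separated by counting error (ratio 1.17, interval 0.979 to 1.40). Of 6 genes known as SOXC targets or neuronal genes, 2 were over 2-fold higher in each direction. *Tead2*, a partner of YAP in transcription, had 832 and 965 counts, *Map2* had 162 and 96, and *Tubb3*, the neuronal tubulin, had 83 and 349.

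The SOXF members *Sox17* and *Sox18* had few reads. *Sox18* (chromosome 2, 181669837 to 181671640), known from vessels and from the dermal papilla, had 37 reads in chondrocytes against 47 in dermal fibroblasts. Its fold of 0.797 had an interval from 0.504 to 1.25, so a difference was not detectable at this depth. *Sox17* (chromosome 1, 4490928 to 4497426), known from endoderm and arteries, had 11 counts against 2, a ratio of 5.57 (interval 1.22 to 51.7), and 3.71 with the floor of 3 counts used for all counts of genes. The interval covers a range from near equality to a very large difference.

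The endothelial genes of the preparations were mostly higher in dermal fibroblasts. Of 12 endothelial markers, 8 were over 2-fold higher in dermal fibroblasts and 1 in chondrocytes, with summed counts of 1942 and 3921 and none at 0 in either library. The VEGF receptors *Flt1* (97 and 446 counts) and *Kdr* (70 and 276 counts) were among the 8, and *Eng* had 1296 and 2372 counts. The one in the other direction was *Erg*, an ETS factor with 159 and 20 counts, named after its values were seen. Of 6 lymphatic endothelial markers, 4 were over 2-fold higher in dermal fibroblasts and 0 in chondrocytes, with summed counts of 126 and 414. *Reln* had 55 and 185 counts, *Prox1*, which *Sox18* is known to induce, had 52 in each library, and *Lyve1* had 3 and 83. *Ccl21a*, named after its values were seen, was at 0 in both. The part of endothelial cells in the reads of *Sox17* and *Sox18* was not tested.

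**Figure D3:**
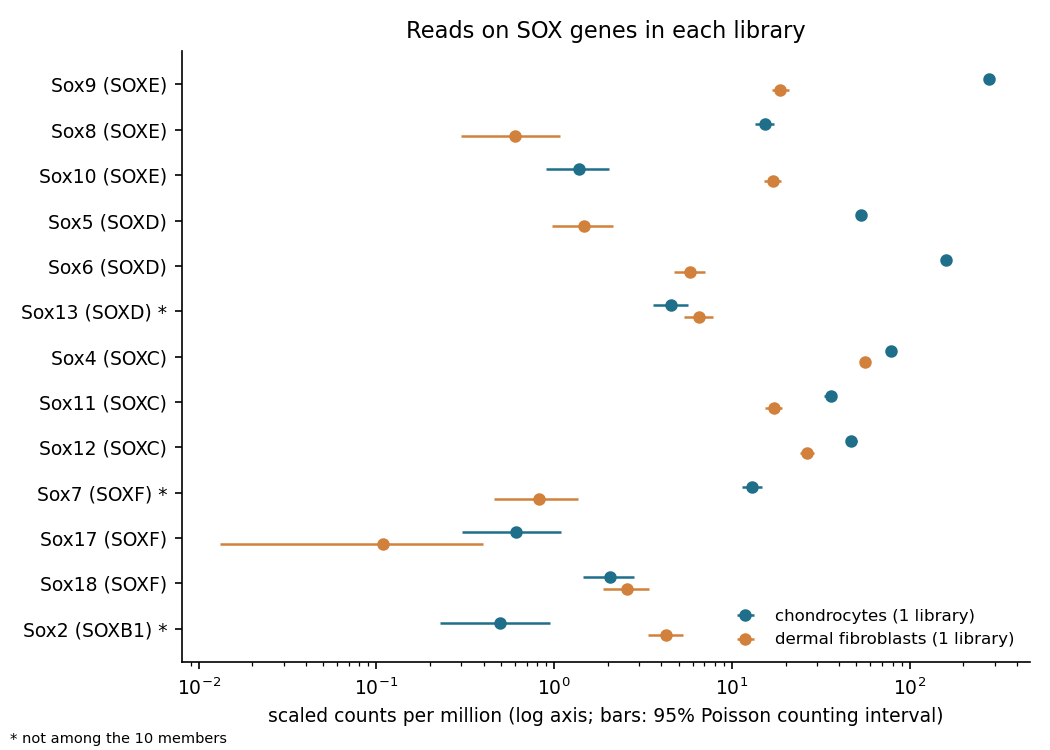
CPM after size-factor scaling (log axis) with 95% Poisson intervals for the SOX genes with at least 10 counts in the chondrocyte library (blue) and the dermal fibroblast library (orange), ordered by SOX subgroup. *Sox9* and *Sox6* are the highest points in chondrocytes, *Sox4* is the highest in dermal fibroblasts, and the intervals of *Sox18* overlap.

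Of the 10 SOX genes outside the members, 3 had at least 10 counts. *Sox7*, the third SOXF gene, had 235 reads in chondrocytes against 15 in dermal fibroblasts, and its fold of 15.9 (interval 9.42 to 28.8) was near that of *Sox9*. *Sox2*, a SOXB1 gene known from pluripotent cells, Schwann cells and the dermal papilla, had 9 and 78 counts, a difference of 8.56-fold toward dermal fibroblasts (interval 4.29 to 19.4). *Sox13* was described above. *Sox15*, *Sox21* and *Sox30* had at most 5 counts in either library, and *Sox1*, *Sox3*, *Sox14* and *Sry* had 0 in both, where a limit of 3 counts for a count of 0 is 0.160 CPM in chondrocytes and 0.171 in dermal fibroblasts. The dermal papilla markers, among which *Sox2* and *Sox18* are sometimes counted, were divided, with 5 of 10 over 2-fold higher in chondrocytes and 3 over 2-fold higher in dermal fibroblasts. *Enpp2* had 4193 and 1875 counts, *Trps1* 1429 and 631, and *Crabp1* 11 and 1786.

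Levels of different genes were compared as scaled CPM per kilobase of exon, with the exon lengths of GENCODE vM1. On this scale *Sox9* was the highest SOX gene in chondrocytes with 67.5 (Poisson interval 65.7 to 69.4). Among the 10 members it was followed by *Sox6* with 18.1, *Sox11* with 17.8, *Sox4* with 16.4 and *Sox12* with 11.2. With these lengths *Sox6* and *Sox11* did not differ beyond their intervals (*Sox11* was at 4.24 with its RefSeq span), nor did *Sox11* and *Sox4*. *Sox8* with 4.90, *Sox5* with 3.68 and *Sox18* with 1.26 came next among the members, each apart from the members beside it, and *Sox10* (0.510) and *Sox17* (0.193) were the last members and not apart. Of the other SOX genes, *Sox7* (3.94) was not apart from *Sox8* or *Sox5*, and *Sox13* (1.053) not apart from *Sox18*. The *Sox9* level exceeded that of 94.7% of the genes tested that had a length.

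In dermal fibroblasts the SOXC genes led the members with these lengths, with *Sox4* at 11.7 (interval 10.97 to 12.4), *Sox11* at 8.53 and *Sox12* at 6.32. *Sox10* followed at 6.25, not apart from *Sox12*, and *Sox9* was the fifth of the members at 4.52, above 45.4% of the genes. *Sox18* (1.59) and *Sox6* (0.655) lay below, and *Sox8* (0.193), *Sox5* (0.103) and *Sox17* (0.0347) were at the end of the order of the members, where neighbours were not apart.

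The SOX make-up of the libraries thus differed by subgroup. SOXE genes took 49.6% of the summed SOX level in chondrocytes and 25.1% in dermal fibroblasts, SOXD genes 15.5% and 5.18%, and SOXC genes 30.9% and 60.6%. *Sox9* alone took 45.9% and 10.3%. The order depends on gene length. With the RefSeq span of *Sox11*, 8451 bp in place of 2013 bp, *Sox11* was at 4.24 in chondrocytes, below *Sox8*, and at 2.03 in dermal fibroblasts, below *Sox10* and *Sox9*, so that the SOXC genes were no longer the 3 highest members there. With the RefSeq spans of *Sox4* and *Sox11* the SOXC share was 24.0% in chondrocytes and 53.8% in dermal fibroblasts. With the longest transcript of *Sox5*, 7243 bp in place of 14376 bp of merged exons, *Sox5* was at 7.31 in chondrocytes and 0.204 in dermal fibroblasts. The folds between libraries do not depend on length.

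**Figure D4:**
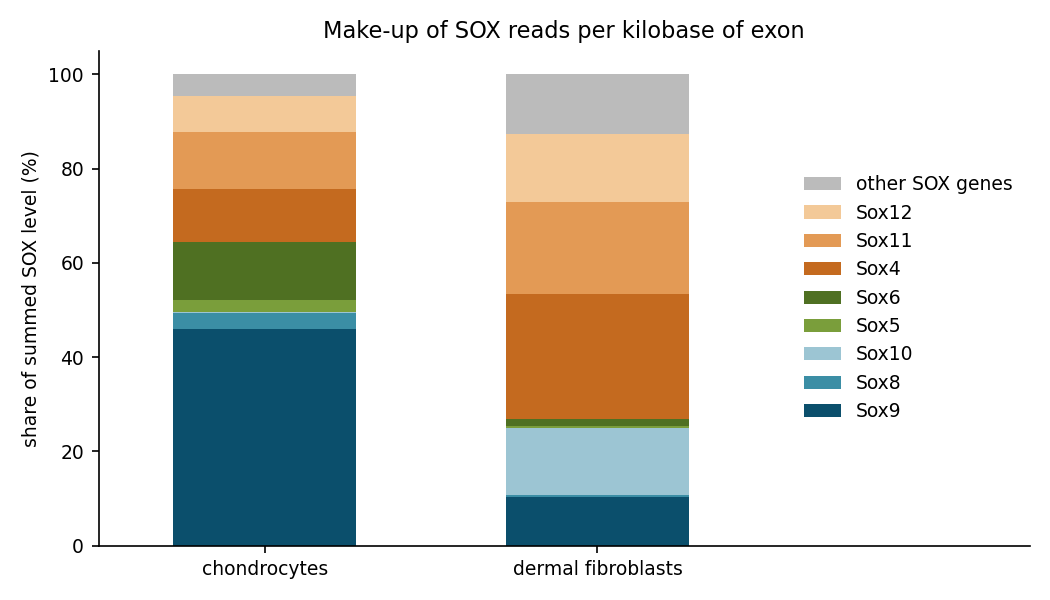
Share of the summed SOX level per kilobase of exon (vertical axis, %) in the chondrocyte library and the dermal fibroblast library, stacked by gene, with blue for SOXE, green for *Sox5* and *Sox6*, orange for SOXC and grey for the other SOX genes. With the exon lengths of GENCODE vM1, *Sox9* takes 45.9% in chondrocytes, while the 3 orange SOXC genes take 60.6% in dermal fibroblasts.

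The cartilage matrix genes that SOX9 is known to activate were all higher in the library with more *Sox9*. Of 18 such genes, 18 were over 2-fold higher in chondrocytes, also when the whole counting interval was required. Their summed counts were 2217659 in chondrocytes and 1525 in dermal fibroblasts. *Acan*, the core protein of aggrecan, had 148105 and 35 counts, and *Col11a1* had 211841 and 839, a 255.6-fold difference (interval 238.9 to 273.9). *Col2a1* exceeded the floor by at least 488396-fold. All 18 folds were above that of *Sox9* (14.9), and 5 of the 18 were at 0 in dermal fibroblasts, although 342 reads of *Sox9* were counted there. These genes are defining genes of cartilage and are no independent support for the differences of the SOX genes.

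**Figure D5:**
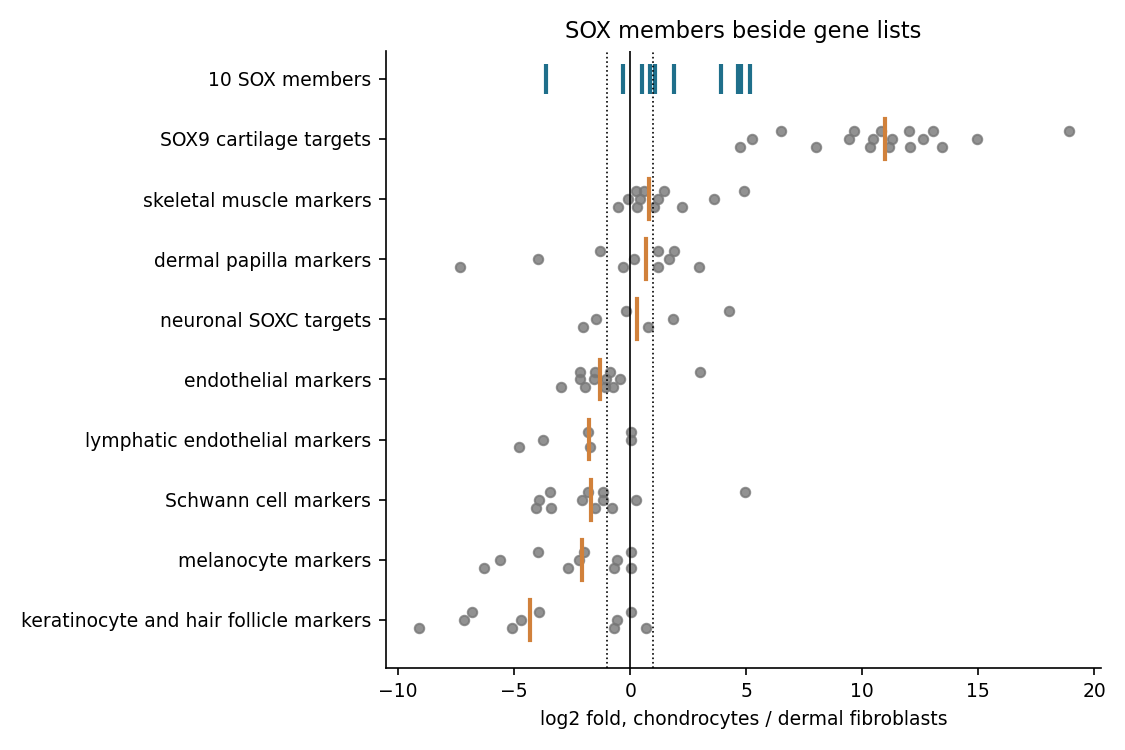
Log2 fold (chondrocytes over dermal fibroblasts, horizontal axis, counts under 3 set to 3) of the 10 SOX members (blue ticks) and of the genes of 9 lists (grey points, orange line at the list's median), with dotted lines at 2-fold. All 18 cartilage targets lie to the right of the dotted lines, while most endothelial, Schwann cell, melanocyte and keratinocyte markers lie to the left of them or between them.

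By level and fold together, the genes most like each gene of the trio in these 2 libraries were found as the nearest in log2(CPM + 0.1). For *Sox9* they were *Xylt1*, which starts the glycosaminoglycan chains of proteoglycans (4335 and 352 counts, a distance of 0.22 log2 units), and *Kank1* (4018 and 313 counts, 0.35). For *Sox6* they were *Pcolce2* (3142 and 100 counts, 0.14) and *Sdk2* (3195 and 112 counts, 0.16), and for *Sox5* they were *Car12* (1025 and 26 counts, 0.11) and *Panx3* (1077 and 22 counts, 0.32). Likeness over 2 values is a weak description, since 79 genes had a fold at least that of *Sox5*, 101 at least that of *Sox6* and 189 at least that of *Sox9*, each gene counting itself.

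The annotation places other genes over 3 of the members. In RefSeq, 6 long noncoding RNA genes overlap the span of *Sox5*, 2 that of *Sox6*, and *Gm46405* covers all 4781 bp of *Sox4*. Of these, *Sox5os3* was in the count table, with 0 counts in both libraries. As it is not stated whether reads were counted by strand, reads of such genes could not be told from those of *Sox4*, *Sox5* and *Sox6*. The other 7 members overlap no gene in RefSeq.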

How the data were processed

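RNA was extracted from primary chondrocytes and primary dermal fibroblasts, and TruSeq stranded libraries of poly(A) RNA were read from 1 end over 75 bp. Per the submitters' processing notes, the authors used CASAVA 1.8.2, TopHat2 2.0.13, Bowtie2 2.2.3 and SAMtools 0.1.19 with mm10 (GRCm38). They deposited raw read counts per gene symbol, not scaled. The counting program, its annotation and its strand setting are not given in the sources used here. Symbols of 27 of the 24421 rows had become dates and were not named.

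Counts were divided by median-of-ratios size factors computed from the table. A gene was called where its fold was over 2, with counts under 3 set to 3. Intervals (95%) are Clopper-Pearson for folds and shares, Poisson for levels and conditional odds-ratio intervals for ratios of folds. They cover counting error only, since no molecular identifiers were used and reads need not be independent molecules. Totals of 18788599 and 17563724 counts put the floor of 3 counts at 0.160 and 0.171 CPM. Samples were grouped by title. With 1 library per group no test was made.

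Calculations used pandas 2.3.3, scipy 1.17.1 and numpy 2.4.6 under Python 3.11.15, with edgeR 4.0.16 in R 4.3.3 for TMM factors alone. They were tested on simulated data. Exon lengths came from GENCODE vM1 (NCBIM37), which named 91.8% of the 14730 genes tested, and positions and sequences from RefSeq (GRCm38.p6). No positions were converted between builds. Named are the members, the other SOX genes, the 3 most abundant genes of each list, the 2 nearest genes of *Sox5*, *Sox6* and *Sox9*, and overlapping genes, with exceptions stated. The members and lists were chosen with earlier results of these data known, and the windows shown after the folds were seen.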

Additional observations from a re-analysis of the deposited data

How the results depend on the processing

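No paired analysis was possible because there was 1 library for each group, and for the same reason no replicate could be left out. The folds of the 10 members were recomputed under 5 other scalings, floors of 1 and 10 counts and a pseudocount of 1. Of these 80 values, 78 stayed within the counting interval of the reported fold and 0 changed direction. The exceptions were *Sox4*, which rose to 1.55-fold with *Actb* scaling, and *Sox17*, which went to 1.11-fold with a floor of 10 counts because its 2 counts were then set to 10. Scaling by total counts moved every log2 fold by -0.12 and scaling by *Actb* by 0.14. The number of members over 2-fold higher in chondrocytes was 6 and went from 4 (fold over 4, or interval bound over 2) to 6, with 5 under total counts, where *Sox11* was lost, and 5 with a floor of 10 counts, where *Sox17* was lost. *Sox10* was the 1 member over 2-fold higher in dermal fibroblasts under each setting tried. Over all genes tested, 1732 were over 2-fold higher in chondrocytes and 2423 in dermal fibroblasts. These became 704 and 951 with a fold over 4, and 1000 and 1578 with the interval bound over 2, both stricter by construction. Of the genes of the 9 lists, 38 were over 2-fold higher in dermal fibroblasts, against 24 with a fold over 4. With RefSeq spans for *Sox4* and *Sox11*, an alternative chosen after seeing the data, *Sox9* took 50.6% of the summed SOX level in chondrocytes and 12.1% in dermal fibroblasts. Depth limits *Sox17* and *Sox18*, with under 50 counts in each library.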
